A study of Mus musculus with 6 samples.

Results

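The Pax genes encode 9 transcription factors, Pax1 to Pax9, that bind DNA through a paired domain and pattern the embryo. All 9 were found by symbol among the 55416 genes of the count table, and their expression was compared between ganglionic eminences with and without Dlx1 and Dlx2. The ganglionic eminences lie in the floor of the embryonic telencephalon and give rise to striatal neurons and cortical interneurons. Total RNA was sequenced from this tissue at E13.5 (embryonic day) in 3 libraries from mice labelled Dlx1/Dlx2 double knockout and 3 from wild-type littermates. Dlx1 and Dlx2 encode homeodomain transcription factors of the ventral forebrain. The labels give no strain, allele design or sex, and they do not say whether each library is 1 embryo or a pool, so the p-values below measure the spread between these libraries.

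The family falls into 4 subfamilies. Pax1 and Pax9 act in the sclerotome and the pharyngeal pouches. Pax2, Pax5 and Pax8 act at the boundary between midbrain and hindbrain and in the kidney, ear and thyroid, and Pax5 is also the commitment factor of B lymphocytes. Pax3 and Pax7 act in the dorsal neural tube, the neural crest and muscle precursors, and Pax7 marks the dorsal midbrain. Pax6 acts in the eye and in the progenitors of the dorsal telencephalon, where its level falls towards the ganglionic eminences, and Pax4 acts with it in the endocrine pancreas.

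Pax7 and Pax5 rose in the double knockout, the Pax6 levels of both genotypes overlapped, and the other 6 members had at most 16 reads in any library. Of the 9 members, 4 had enough reads for the test (Pax2, Pax5, Pax6 and Pax7), and 2 of these 4 passed it, both upward. Across the table, 1.34% of the 23628 tested genes were higher in the double knockout at an adjusted p under 0.05, 1.34% were lower, and 2.68% passed in either direction. With scaling by total count, 390 genes were higher and 256 lower, in place of 317 each. Both called members were higher without overlap between genotypes, as were 9.3% of all tested genes. Calls come from the quasi-likelihood test of edgeR, with p-values adjusted by Benjamini-Hochberg over every gene tested. Levels are CPM, read counts scaled to a common library size with TMM normalisation, and errors are SD over 3 libraries.

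The labels and the tissue were checked first. The deleted parts of Dlx1 and Dlx2 are not given in the sources used here. Dlx2 held 16510, 18768 and 20100 reads in the wild-type libraries, against 487, 436 and 762 in the double knockout, and Dlx1 fell from 438.9 ± 6.12 to 81.6 ± 10.8 CPM (SD, n = 3). For the tissue, Nkx2-1, a factor of the medial ganglionic eminence, was at 128.0 ± 10.2 and 192.9 ± 33.3 CPM in the wild type and double knockout. Gsx2, of the lateral one, was at 23.5 ± 2.17 and 36.6 ± 5.21 CPM. These are the 2 called higher of 10 markers of the telencephalon and ganglionic eminence, while 5 of the 10 were called lower. Both lost the call in some fits, as given below. Total counts ranged from 56618090 to 70114173, and a count of 3, taken as the floor of a library, was worth 0.0433 to 0.0520 CPM. No libraries held identical counts, and the correlation of log2 levels across genes (Pearson, genes are not replicates) ran from 0.9942 to 0.9955 within groups and from 0.9911 to 0.9946 between them. Wild-type replicate 1 stood apart in the choroid plexus list, at a sum of 28.8 CPM against 0.452 to 1.11 CPM in the other libraries. Xist, the RNA that coats the silenced X chromosome, ranged over 1243 to 1521 CPM in 3 libraries. These were double knockout replicate 1 and replicates 2 and 3 of the wild type. In the others, Xist was at 0.1195 to 0.836 CPM. The summed level of 4 Y-linked genes split the libraries in the opposite way. It was 207.1 to 213.8 CPM in those with low Xist and 0.01556 to 0.1715 CPM in those with high Xist.

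**Figure D1:**
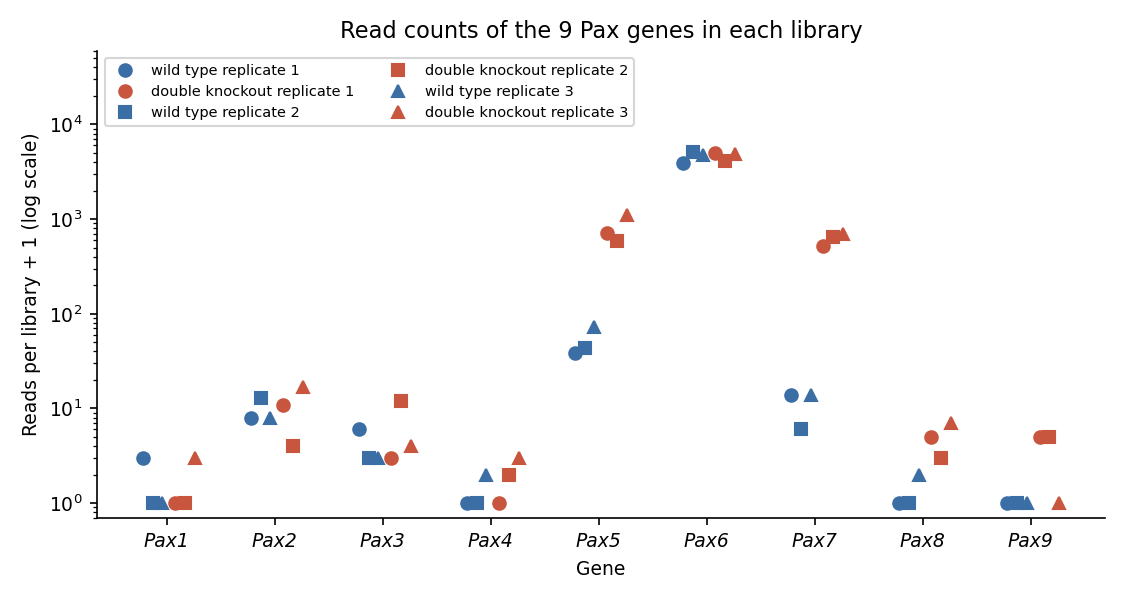
Reads of each Pax gene in each of the 6 libraries, with 1 added so that zeros can be drawn on the log axis; blue points are wild type and red points are double knockout, and the symbol gives the replicate. Pax6 has 3889 to 5175 reads in every library, Pax5 and Pax7 separate by genotype, and the other 6 genes have 0 to 16 reads.

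DLX proteins recognise DNA with the core TAATT, and the promoter windows of the 3 members with most reads are shown to place that core beside the results. The windows hold 250 bases before and 50 bases after an annotated transcription start, in RefSeq's GRCm38.p6, 5′ to 3′ on the gene's strand. Capitals mark TAATT on either strand (AATTA is its reverse complement), and overlapping matches were counted. The counts themselves have no coordinates, and the submitters' processing notes name another build, GRCm39. Pax6 has 2 windows, for 2 of its starts.
Pax7, chr4:139832919-139833218, minus strand: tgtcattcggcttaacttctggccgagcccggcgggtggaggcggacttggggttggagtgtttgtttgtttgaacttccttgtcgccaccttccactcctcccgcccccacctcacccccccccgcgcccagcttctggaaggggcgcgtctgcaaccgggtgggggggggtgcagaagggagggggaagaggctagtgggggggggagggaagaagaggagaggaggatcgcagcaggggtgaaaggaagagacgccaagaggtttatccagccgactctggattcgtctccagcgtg
Pax5, chr4:44710645-44710944, minus strand: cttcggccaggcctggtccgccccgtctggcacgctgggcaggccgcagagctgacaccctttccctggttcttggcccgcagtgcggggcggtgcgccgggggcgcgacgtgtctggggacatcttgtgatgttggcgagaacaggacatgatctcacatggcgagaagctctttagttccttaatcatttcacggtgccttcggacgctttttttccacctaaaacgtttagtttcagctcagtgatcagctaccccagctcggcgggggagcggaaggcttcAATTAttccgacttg
Pax6, chr2:105668646-105668945, plus strand: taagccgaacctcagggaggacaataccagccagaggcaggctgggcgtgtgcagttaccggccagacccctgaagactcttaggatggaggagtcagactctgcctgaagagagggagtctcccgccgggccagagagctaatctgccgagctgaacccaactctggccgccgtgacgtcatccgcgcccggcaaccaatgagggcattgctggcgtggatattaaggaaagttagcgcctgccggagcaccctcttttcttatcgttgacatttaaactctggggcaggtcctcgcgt
Pax6, chr2:105682213-105682512, plus strand: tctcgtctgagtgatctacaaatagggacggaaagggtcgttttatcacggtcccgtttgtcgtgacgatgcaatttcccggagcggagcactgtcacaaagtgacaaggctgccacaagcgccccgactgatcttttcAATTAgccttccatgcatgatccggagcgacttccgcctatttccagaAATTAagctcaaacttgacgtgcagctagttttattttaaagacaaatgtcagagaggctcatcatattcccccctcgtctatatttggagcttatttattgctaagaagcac
The Pax7 window had no match, the Pax5 window had 1, and the Pax6 windows had 0 and 2. Of all 32851 windows of 300 bases in the table, 27.0% held at least 1 match. Windows were found for 7 of the 9 members, 10 in all, and 3 of these 10 held a match, 1 window each of Pax5, Pax6 and Pax9. A match is a description of these letters and no evidence of binding.

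Pax7 (ENSMUSG00000028736) was read in every library, at a very low level in the wild type and a higher one in the double knockout. It had 13, 5 and 13 reads in wild-type replicates 1 to 3, or 0.222, 0.0778 and 0.203 CPM. In double knockout replicates 1 to 3 it had 524, 649 and 698 reads, or 8.07, 11.3 and 10.1 CPM. The lowest double knockout library was thus far above the highest wild-type library, and the groups did not overlap. Its log2 fold change was 5.87 (SE 0.282, 95% interval 5.22 to 6.51), and edgeR gave an adjusted p of 1.89e-05. That fold rests on a wild-type level of 5 to 13 reads per library, and leaving out wild-type replicate 2, the lowest, gave a log2 fold change of 5.52. Among the 292 called increases whose mean reached 1 CPM, Pax7 ranked 2.

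Pax5 (ENSMUSG00000014030) rose from a low but measurable level. Wild-type replicates 1 to 3 had 38, 43 and 72 reads, or 0.649, 0.669 and 1.12 CPM, and double knockout replicates 1 to 3 had 720, 592 and 1103 reads, or 11.1, 10.3 and 15.9 CPM. Replicate 3 was the highest library within each genotype, and the groups did not overlap. The log2 fold change was 3.93 (SE 0.256, 95% interval 3.34 to 4.51), edgeR gave an adjusted p of 1.15e-04, and Pax5 ranked 4 among the 292 increases. Across the table, 19.5% of tested genes had groups without overlap in either direction.

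Exons of 2 genes on the opposite strand overlap Pax5 in GENCODE M21, and the authors' annotation release is not given in the sources used here. One of them, 5730488B01Rik (ENSMUSG00000103995), shares 636 of the 8853 exon bases of Pax5. It had 2, 2 and 3 reads in the wild type, against 51, 42 and 43 reads in the double knockout, and it rose from 0.0373 ± 0.00830 to 0.711 ± 0.0842 CPM (log2 fold change 4.18, SE 0.376, edgeR adjusted p = 7.41e-04). It was named after its values had been seen. The other, Gm12462, shares 125 bases and had overlapping groups, with 10 to 32 reads in the wild type, against 17 to 41 in the double knockout (edgeR adjusted p = 0.822). The library kit keeps strand, but whether counting used it is not given in the sources used here, so reads of Pax5 and 5730488B01Rik could not be told apart where they overlap. In the double knockout 5730488B01Rik had 42 to 51 reads and Pax5 had 592 to 1103. How many reads lay in the shared bases was not tested.

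**Figure D2:**
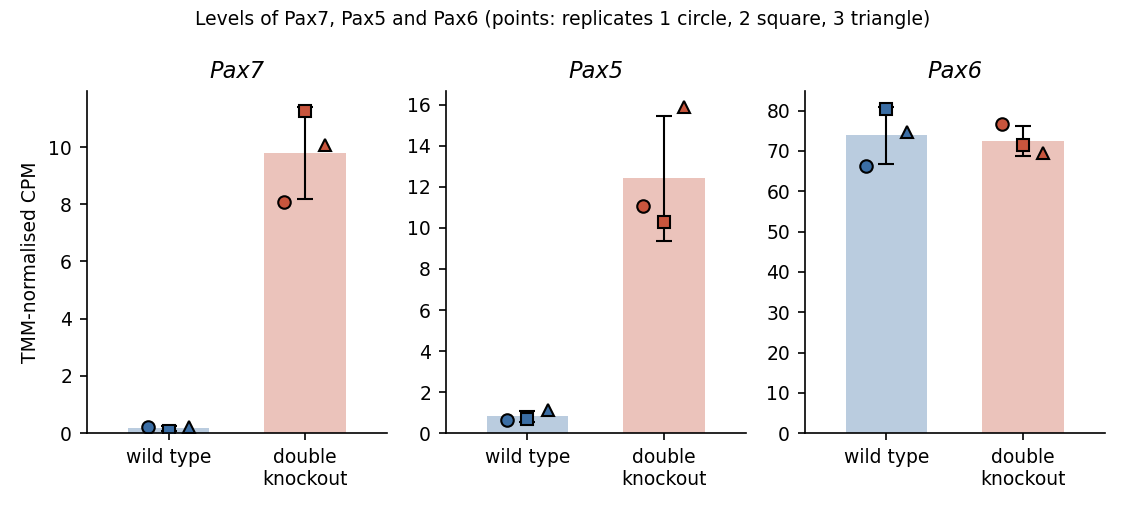
TMM-normalised CPM of Pax7, Pax5 and Pax6 on linear axes that start at 0, with bars at the mean of 3 libraries, error bars of 1 SD and a point for each replicate. The Pax7 and Pax5 groups do not overlap, while the Pax6 groups lie between 66.4 and 80.5 CPM in both genotypes.

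Pax6 (ENSMUSG00000027168) was the most abundant member in both genotypes. It was at 66.4, 80.5 and 74.6 CPM in wild-type replicates 1 to 3 and 76.6, 71.5 and 69.4 CPM in the double knockout, so the double knockout libraries lay inside the wild-type range. The means were 73.8 ± 7.11 and 72.5 ± 3.71 CPM (SD, n = 3), and the log2 fold change was -0.03 (SE 0.0752, edgeR adjusted p = 0.930). The 95% interval of the log2 fold change, -0.20 to 0.14, bounds a change in either direction. The antisense genes Pax6os1 and Paupar, named after their values had been seen, were at under 1 CPM. Pax6os1 had 16, 49 and 31 reads in the wild type, against 30, 22 and 18 in the double knockout, and the groups overlapped (edgeR adjusted p = 0.728). Paupar had 42, 45 and 34 reads against 32, 15 and 26, without overlap, and did not pass the test (log2 fold change -0.78, SE 0.304, edgeR adjusted p = 0.306).

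Pax2 (ENSMUSG00000004231) was tested near the lower limit of detection. It had 7, 12 and 7 reads in the wild type, against 10, 3 and 16 in the double knockout, with overlapping groups. The log2 fold change of Pax2 was 0.10 (SE 0.559, edgeR adjusted p = 0.969). The 95% interval of -1.18 to 1.37 allows a change of over 2-fold either way, so a difference was not detectable at this depth.

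The other 5 members did not pass the filter on low counts. Pax3 had 5, 2 and 2 reads in the wild type, against 2, 11 and 3 in the double knockout, with its highest count in a single library, double knockout replicate 2. Pax8 had 0, 0 and 1 reads in the wild type, against 4, 2 and 6 in the double knockout. These counts did not overlap, and the ratio of the summed reads was 11.7 with an exact 95% counting interval of 1.73 to 500. Pax9 had no read in the wild type, which allows up to 0.0467 to 0.0512 CPM per library, and 4, 4 and 0 reads in the double knockout. Without a filter on low counts, edgeR gave unadjusted p-values of 0.041 for Pax8 and 0.0424 for Pax9, and adjusted p-values of 0.468 and 0.474, so neither passed. Pax1 and Pax4 had 0 to 2 reads in every library. Opposite-strand genes share 183 exon bases with Pax1 (AI646519, no reads), 367 with Pax8 (Gm13415, 1 read in all) and 189 with Pax9 (Slc25a21). Slc25a21 had 4, 1 and 4 reads in the wild type, against 6, 5 and 8 in the double knockout, without overlap, and its part in the Pax9 counts was not tested. By the same count of summed reads, the ratio was 1.73 for Pax3 (95% interval 0.721 to 4.45) and 0.974 for Pax1 (0.0706 to 13.4). For Pax4 it was 2.92 (0.235 to 153). Pax9, with no read in the wild type, had no finite ratio, and its lower bound was 1.66. The intervals given for these members and for Pax8 cover counting error only.

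Levels of different members were compared per length of exon. In the wild type, Pax6 was at 6.31 ± 0.608 CPM per kilobase of exon, Pax5 at 0.0919 ± 0.0303, Pax7 at 0.0286 ± 0.0134 and Pax2 at 0.0256 ± 0.00779. Pax7 and Pax2 did not differ beyond their spread. In the double knockout, Pax6 was at 6.20 ± 0.317 CPM per kilobase, Pax7 at 1.67 ± 0.274 and Pax5 at 1.403 ± 0.344, and the last 2 did not differ beyond their spread. Pax2, at 0.0269 ± 0.0166 CPM per kilobase, was far below them. Lengths are from GENCODE M21, and with the longest transcript in place of all exons, Pax6 was at 16.7 and 16.4 CPM per kilobase in the wild type and double knockout.

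The summed level of the 9 genes was 67.5, 81.5 and 76.1 CPM in wild-type replicates 1 to 3 and 96.1, 93.4 and 95.8 CPM in the double knockout. Pax6 supplied 98.0% to 98.8% of Pax reads in the wild type, against 72.4% to 79.7% in the double knockout. The share of Pax5 was 0.821% to 1.47% and 11% to 16.6%, and that of Pax7 was 0.0955% to 0.329% and 8.40% to 12.1%. The other 6 genes together supplied under 0.44% of Pax reads in every library, or 11 to 14 reads in the wild type, against 20 to 29 in the double knockout. A change in the number of cells of a type and a change in RNA per cell cannot be told apart in these tissue samples.

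The balance between members of a subfamily was read as a ratio in each library. Pax3, Pax2 and Pax8 were near the floor and below the pseudocount, so the ratios to them mainly restate the levels of Pax7 and Pax5, and their size depends on the pseudocount. The log2 ratio of Pax7 to Pax3, from CPM with a pseudocount of 0.5, was 0.28 ± 0.14 in the wild type, against 4.13 ± 0.14 in the double knockout (SD, n = 3; exact permutation test, two-sided, p = 0.1). The log2 ratio of Pax5 to Pax2 was 1.02 ± 0.34 and 4.31 ± 0.17, and that of Pax8 to Pax5 was -1.36 ± 0.26 and -4.50 ± 0.26 (exact permutation p = 0.1 for each). For Pax8 to Pax2 the values were -0.34 ± 0.11 and -0.19 ± 0.14 (exact permutation p = 0.3). With 3 libraries against 3 no p can fall below 0.1, and after adjustment over these 4 pairs the values were 0.133, 0.133, 0.133 and 0.3. With a pseudocount of 0.1 the difference between genotypes was 4.99 in place of 3.85 for Pax7 to Pax3 and 3.80 in place of 3.28 for Pax5 to Pax2. Across subfamilies, in pairs added after the data had been seen, the log2 ratio of Pax5 to Pax6 was higher by 3.32 and that of Pax7 to Pax6 by 3.97, each without overlap between genotypes. The ratio of Pax7 to Pax5 was also higher in every double knockout library, by 0.65 on average (exact permutation p = 0.1 for all 3, adjusted p = 0.1). The pseudocount of 0.5 exceeds the wild-type level of Pax7, and with 0.1 these differences were 3.81 for Pax5 to Pax6, 5.27 for Pax7 to Pax6 and 1.46 for Pax7 to Pax5.

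Pax6 was at 80.5, 74.6 and 76.6 CPM in the 3 libraries with high Xist and at 66.4, 71.5 and 69.4 CPM in the 3 with low Xist. These values did not overlap, which held for 5.56% of all tested genes. In an edgeR model with genotype and Xist pattern, chosen after the values had been seen, the Pax6 difference between patterns was 0.17 on the log2 scale (unadjusted p = 0.0279, adjusted p = 1) and did not pass. The differences of Pax5 and Pax7 were present within each Xist pattern. In the libraries with high Xist, Pax7 was at 0.0778 and 0.203 CPM in the wild type, against 8.07 CPM in the double knockout, and Pax5 was at 0.669 and 1.12 CPM in the wild type, against 11.1 CPM. In those with low Xist, Pax7 was at 0.222 CPM in the wild type, against 11.3 and 10.1 CPM in the double knockout, and Pax5 at 0.649 CPM and 10.3 and 15.9 CPM. Each pattern has a single library in one genotype, so it allows no separate test. With the summed Y-linked level as a covariate, edgeR gave log2 fold changes of 5.72 for Pax7 and 3.93 for Pax5, with adjusted p-values of 9.96e-05 and 0.00113.

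The genes whose levels followed Pax5 and Pax7 most closely also encode transcription factors. Likeness was the root mean square difference between profiles of log2(CPM + 0.5) centred over the 6 libraries, among 16486 other genes whose mean reached 1 CPM. Otp, a factor of hypothalamic neuroendocrine neurons, was nearest to Pax7 at 0.334, followed by Pax5 at 0.427 and Msx3 at 0.600. Gsx1, a factor of ventral progenitors, was nearest to Pax5 at 0.289, followed by Msx3 at 0.334 and Evx2 at 0.362. Otp was at 9.44 ± 3.63 CPM in the wild type, against 118.4 ± 4.78 CPM in the double knockout, and Gsx1 at 5.14 ± 0.325 and 39.6 ± 7.38 CPM. The pseudocount compresses the step of genes that are low in the wild type, such as Pax7 and Evx2, so nearness on this scale is not nearness in fold change. The log2 fold change of Otp, for example, was 3.65 in edgeR, below that of Pax7. All 6 libraries share the genotype split.

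**Figure D3:**
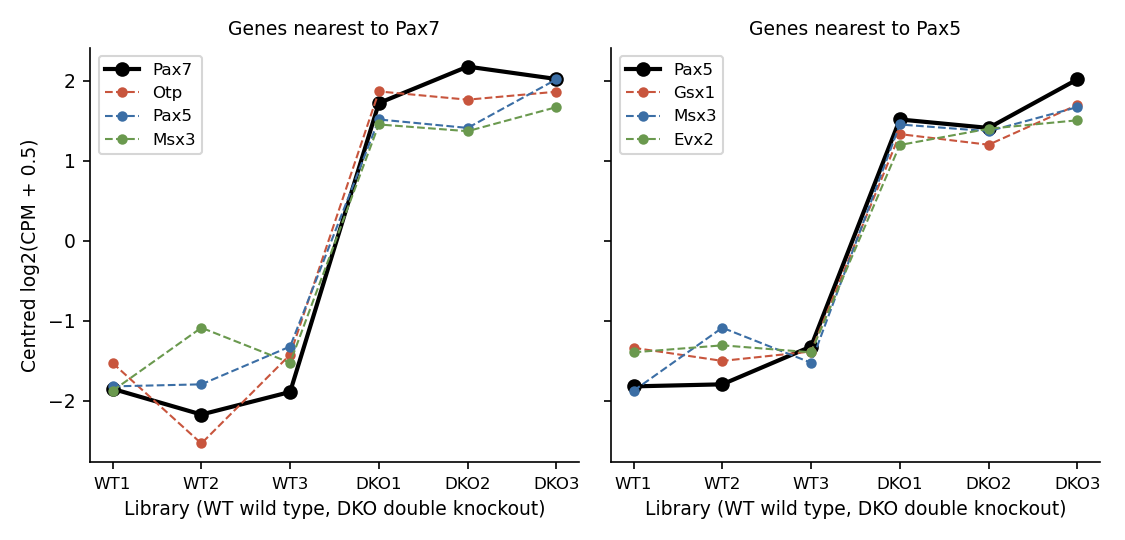
Log2(CPM + 0.5) of Pax7 (left) and Pax5 (right), centred over the 6 libraries, with the 3 genes of nearest profile as dashed lines; WT is wild type and DKO is double knockout, and lines join separate libraries only to guide the eye. All lines step up between the wild-type and double knockout libraries.

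The nearest protein-coding genes on either side of each member were examined next. Of these 18 neighbours, 16 were tested. None passed at an adjusted p under 0.05 in edgeR or in DESeq2, and 0 had an unadjusted p under 0.05 in edgeR. Of all tested genes, 2.68% passed in edgeR, 4.92% in DESeq2, and 13.3% had an unadjusted p under 0.05. Their log2 fold changes ran from -0.74 to 0.85. Zcchc7 and Melk, beside Pax5, were at 30.0 ± 1.85 and 36.1 ± 2.59 CPM in the wild type, against 30.5 ± 1.94 and 40.8 ± 6.97 CPM in the double knockout. Beside Pax7, Klhdc7a was at 0.474 ± 0.246 and 0.285 ± 0.145 CPM, and Tas1r2 was too low to test. Elp4 and Rcn1, which flank Pax6, differed by 0.06 (SE 0.0596) and 0.12 (SE 0.0895) on the log2 scale.

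Genes of the regions and cell types in which Pax genes are known to act were examined from 14 lists with 124 genes, of which 84 were tested and 25 were called, 13 higher and 12 lower. The median log2 fold change of all tested genes was -0.00161. Of all tested genes, edgeR called 2.68%, with 1.34% in each direction. DESeq2 called 4.92%, and 13.3% had an unadjusted p under 0.05 in edgeR. Of the genes known to be expressed with Pax2, Pax5 and Pax8 in the midbrain and isthmus, 1 of 7 tested was higher and none lower, with a median of 0.87. In this list 3 genes had an unadjusted p under 0.05, and DESeq2 called 2. The gene was Cnpy1, a modulator of FGF signalling at the isthmus, at 0.486 ± 0.214 CPM in the wild type, against 1.91 ± 0.590 CPM in the double knockout (log2 fold change 1.96, SE 0.360, edgeR adjusted p = 0.0263). Its call was lost with the replicate number as a block and in 4 of the 6 fits without a library, with an adjusted p of up to 0.109. Gbx2 was higher in every double knockout library, at 8.45 to 15.7 CPM against 5.67 to 7.08 CPM, but did not pass (edgeR adjusted p = 0.0990). En1, En2 and Wnt1, which define the region, were too low to test, at means of 0.0156 to 0.124 CPM in either genotype. The summed level of the list was 9.66 to 10.6 CPM in the wild type, against 15.1 to 19.6 CPM in the double knockout. Most of that sum was Gbx2, at 6.1 ± 0.81 and 11.2 ± 3.9 CPM. A gene on the opposite strand overlaps 946 of the 2177 exon bases of Gbx2. The part of this list in the rise of Pax5 was not tested.

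In the list of the thalamus, pretectum and midbrain, where Pax7 marks dorsal territories, 3 of 15 tested genes were higher and 1 lower, with a median log2 fold change of 0.39. Of the 15, 13 had a fold change above 0, 9 had an unadjusted p under 0.05, and DESeq2 called 7. The shares over all tested genes were 2.68% called in edgeR, 4.92% called in DESeq2 and 13.3% with such an unadjusted p. Tal2, a factor of midbrain GABAergic neurons, rose from 1.05 ± 0.0538 to 5.93 ± 1.20 CPM (log2 fold change 2.50, SE 0.179, edgeR adjusted p = 2.19e-04). Irx2, a homeobox gene of the midbrain and hindbrain, rose from 0.149 ± 0.0332 to 0.885 ± 0.275 CPM, and Lhx1, a LIM homeobox gene, from 6.44 ± 0.778 to 10.7 ± 0.992 CPM. Lhx1 lost its call in 4 of the 6 fits without a library, with an adjusted p of up to 0.0774. Helt, which is also needed for midbrain GABAergic neurons, moved the other way, from 3.86 ± 1.03 to 1.08 ± 0.207 CPM (log2 fold change -1.84, SE 0.231). The summed level of the list was 68.8 to 78.8 CPM in the wild type, against 85.0 to 106.2 CPM in the double knockout, and its part in the rise of Pax7 was not tested. The 8 Hox genes of the hindbrain and spinal cord summed to at most 0.202 CPM in any library.

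**Figure D4:**
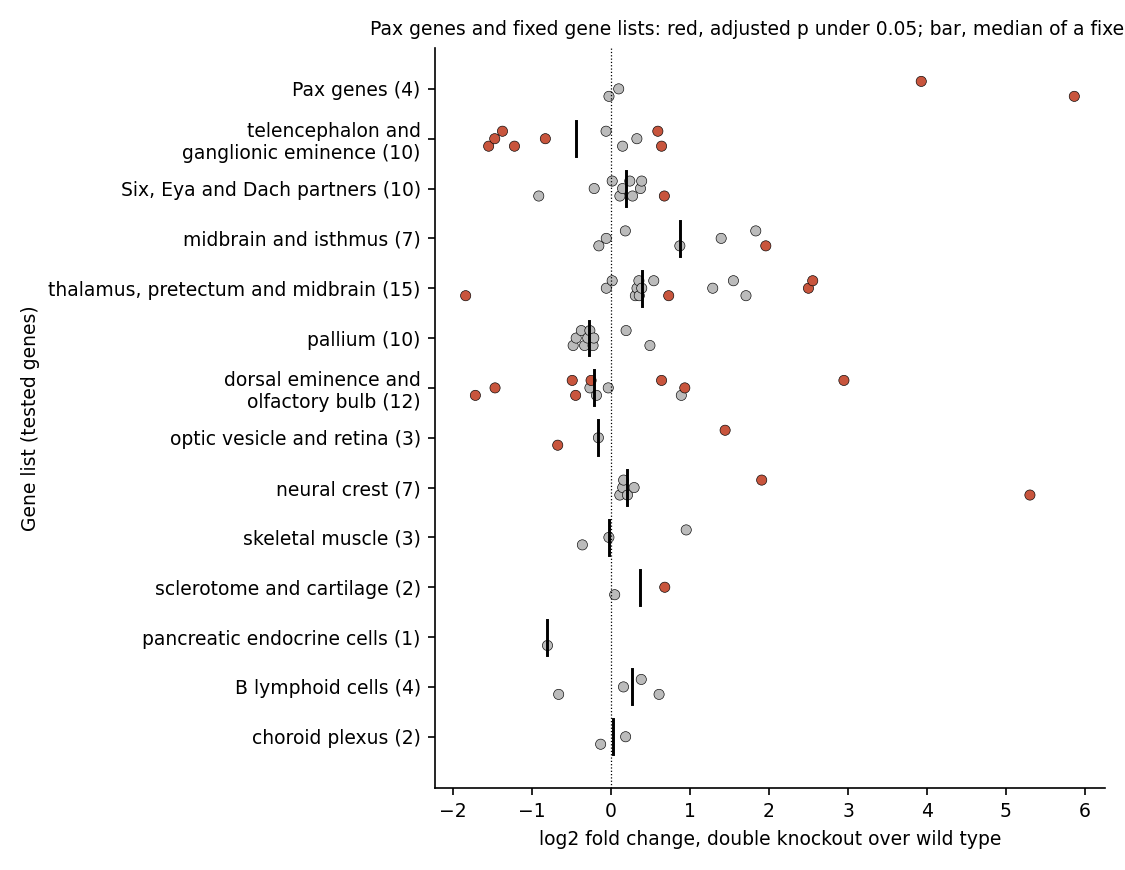
Log2 fold changes of the tested Pax genes and of the tested genes of each fixed list, with the number tested in brackets; red points passed at an adjusted p under 0.05 in edgeR, grey points did not, and black bars are the medians of the fixed lists. Pax7 at 5.87 and Pax5 at 3.93 lie to the right of all list genes except Tfap2b, at 5.30, which lies between them with all libraries and above Pax7 (6.32 against 6.11) without wild-type replicate 1.

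For Pax6, the lists of the dorsal telencephalon and of the dorsal ganglionic eminence were read. In the pallium list, 8 of 10 log2 fold changes were below 0, with a median of -0.28, but none passed the edgeR test, 6 had an unadjusted p under 0.05 (13.3% of all tested genes did), and DESeq2 called 3. The log2 fold changes of this list ran from -0.48 to 0.49. Those of Eomes (-0.22) and Neurog2 (-0.23) were smaller in size than the median. Eomes, a factor of cortical intermediate progenitors, was at 82.1 ± 7.32 and 70.6 ± 2.52 CPM. Neurog2, the proneural gene of cortical progenitors, was at 60.4 ± 5.06 and 51.6 ± 6.81 CPM. Other genes of the pallium list had more reads. Tbr1 was at 310.2 ± 2.78 CPM in the wild type, against 257.5 ± 27.1 CPM in the double knockout. Neurod6 was at 203 ± 8.03 and 145.5 ± 30.3 CPM. RNA of pallial genes was thus abundant in both genotypes, and the part of pallial cells in the Pax6 level was not tested. Of 12 genes of the dorsal ganglionic eminence and the olfactory bulb, 3 were higher and 5 lower, with a median of -0.22. Of these 12, 11 had an unadjusted p under 0.05 in edgeR, and DESeq2 called 8. Over all tested genes, edgeR called 2.68% and DESeq2 4.92%. Besides Gsx1, Sall3 rose from 81.4 ± 6.63 to 155.5 ± 11.8 CPM and Gsx2 from 23.5 ± 2.17 to 36.6 ± 5.21 CPM. Sp8, a factor of olfactory bulb interneurons, fell from 39.95 ± 2.56 to 12.2 ± 3.91 CPM, and Th, which encodes tyrosine hydroxylase, from 4.999 ± 0.177 to 1.80 ± 0.503 CPM. Meis2, a homeobox partner of Pax6, fell from 564.9 ± 29.2 to 413.9 ± 23.8 CPM, while Meis1 and Foxp2 fell by 0.49 and 0.25 on the log2 scale. Gsx2, Meis1, Meis2 and Foxp2 each lost the call in at least 1 fit without a library, with adjusted p-values of up to 0.0969, 0.12, 0.0502 and 0.153.

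Of the list of partners of Pax factors in several organs, which holds the Eya and Dach genes, 1 of 10 tested was higher and none lower, with a median of 0.19. It was Dach2, at 7.51 ± 0.0903 CPM in the wild type, against 12.0 ± 1.63 CPM in the double knockout. The call of Dach2 was lost in 5 of the 6 fits without a library (edgeR adjusted p of up to 0.0847). Of the 10 genes, 8 had a fold change above 0, 5 had an unadjusted p under 0.05 in edgeR, and DESeq2 called 2. Of all tested genes, 13.3% had such an unadjusted p, and DESeq2 called 4.92%. In the optic list, Otx2 rose from 13.7 ± 3.23 to 37.3 ± 2.84 CPM and Vax1 fell from 16.1 ± 0.475 to 10.1 ± 0.715 CPM, as 2 of 3 tested genes. Rax, which defines the eye field, had a mean under 0.1 CPM in both genotypes.

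Genes of tissues outside the brain that express Pax genes were examined last, with the choroid plexus list and the telencephalon and ganglionic eminence list. Among muscle genes, Myf5, Myf6, Myod1 and Myog had means of 0.00519 to 0.0366 CPM in either genotype, none of 3 tested genes was called, 1 had an unadjusted p under 0.05, DESeq2 called 0, and the sums of 1.76 to 2.70 and 1.92 to 2.90 CPM overlapped. Among B lymphoid genes, 0 of 4 tested genes was called by edgeR or DESeq2 or had an unadjusted p under 0.05, and the sums of 0.996 to 1.06 and 0.894 to 1.56 CPM overlapped. In the neural crest list, 2 of 7 tested genes were higher, Tfap2b with a log2 fold change of 5.30 and Tfap2a with 1.91 (Tfap2b had 10, 3 and 2 reads in the wild type, and its value was 6.32 without wild-type replicate 1), while Foxd3, which defines that lineage, had no read in any library. The list summed to 42.6 to 45.2 CPM and 53.8 to 57.5 CPM. Of its 7 tested genes, 3 had an unadjusted p under 0.05 in edgeR, and DESeq2 called 2. Of the sclerotome and cartilage list, Col2a1 rose from 50.8 ± 7.20 to 81.4 ± 10.4 CPM, as 1 of 2 tested genes (edgeR adjusted p of up to 0.0941 without a library), and Nkx3-2 was at 0.0104 and 0.0116 CPM. Neither the pancreatic list (1 tested) nor the choroid plexus list (2 tested) held a called gene in edgeR or DESeq2, and 1 gene of the first and 0 of the second had an unadjusted p under 0.05. Of the telencephalon and ganglionic eminence list, 2 of 10 were higher and 5 lower, with a median of -0.45. In that list 8 genes had an unadjusted p under 0.05 in edgeR, and DESeq2 called 7. For all lists of this paragraph, the shares over all tested genes were 2.68% called in edgeR and 4.92% in DESeq2. An unadjusted p under 0.05 was found for 13.3%. Gad1 and Gad2, which encode GABA-synthesising enzymes, fell by 1.47 and 1.37 on the log2 scale, Ebf1 by 1.55, Lhx8 by 1.22 and Lhx6 by 0.83, while Nkx2-1 rose by 0.59. Lhx6 and Nkx2-1 lost the call in some fits, with edgeR adjusted p-values of up to 0.118 and 0.147. Annotated genes overlap exons of Gbx2, Otx2, Tfap2a, Meis1, Eomes, Lhx6, Rax, Foxd3 and several of the Hox genes, among others, so their counts are uncertain.

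**Figure D5:**
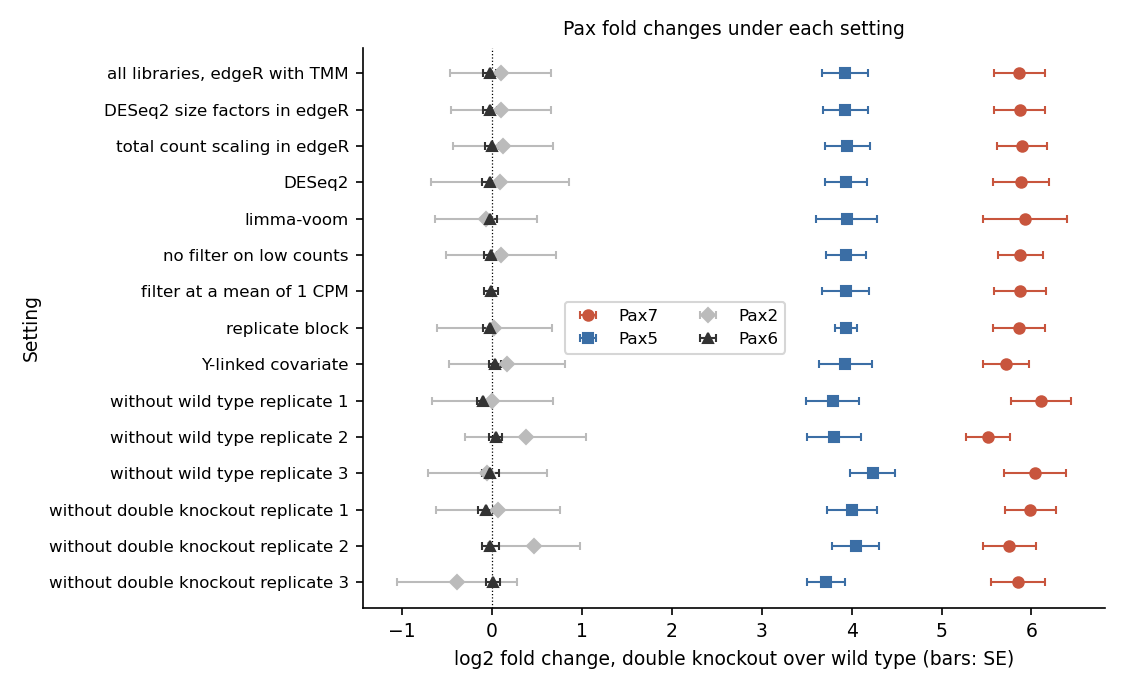
Log2 fold change with its SE for Pax7, Pax5, Pax2 and Pax6 in the edgeR fit of all libraries and in each alternative setting. Pax7 stays between 5.52 and 6.11 and Pax5 between 3.71 and 4.23, while Pax6 and Pax2 lie around 0.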

How the data were processed

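Read counts per gene were deposited by the authors for 6 libraries, 1 column each, as whole-number counts that were neither normalised nor pooled. The submitters' processing notes name featureCounts and the GRCm39 build. The aligner, annotation release, strand and multi-mapping settings are not given in the sources used here. Per the labels' protocols, libraries were made from total RNA with a stranded kit that depletes ribosomal RNA. All value columns matched a sample.

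Titles gave the groups. Low genes were removed by filterByExpr (minimum count 10, minimum total 15), and the rest were scaled by TMM and tested with edgeR 4.0.16 in R 4.3.3 (quasi-likelihood, prior count 0.125, adjusted p under 0.05). The SE is the fitted coefficient over the square root of F. The script was tested on simulated counts. DESeq2 1.42.0, limma 3.58.1 and the other settings are alternatives. Exon lengths, overlaps and neighbours came from GENCODE M21 (GRCm38), matched by gene ID. Up to 8 called genes per list were named, and 3 nearest genes per called member. The members and lists were chosen with earlier results of these data known, so no list is independent evidence. Some genes of the lists are not reported by name here.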

Additional observations from a re-analysis of the deposited data

How the results depend on the processing

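Pax5 and Pax7 were called as higher, and Pax2 and Pax6 were not called, in every one of the 14 alternatives in which they were tested (Pax2 was removed by the filter at a mean of 1 CPM, and DESeq2 gave it no adjusted p). The log2 fold change of Pax7 ran from 5.52 to 6.11 and that of Pax5 from 3.71 to 4.23. With the replicate number as a block they were 5.86 and 3.94. The labels do not say that a number marks a litter. Same-numbered libraries had correlations of -0.0629, -0.00129 and 0.035 in their deviations. Each deviation is from a mean of 3 libraries, so these values do not settle whether the numbers pair the samples. The block moved the number of called genes from 634 to 690. The sign of Pax6 changed with total count scaling (0.0029), with the Y-linked covariate (0.033), without wild-type replicate 2 (0.0399) and without double knockout replicate 3 (0.0102). That of Pax2 changed in limma-voom (-0.0676), without wild-type replicate 3 (-0.0515) and without double knockout replicate 3 (-0.391). These values are within their SE of 0. Over the fits without 1 library, Pax6 ran from -0.0985 to 0.0399 and Pax2 from -0.3914 to 0.4699. Across the table, DESeq2 called 1162 genes, the Y-linked covariate left 359, and the fits without 1 library called 309 to 749; the list genes called in those fits numbered 16 to 30, with 16 without wild-type replicate 2. With a pseudocount of 0.1 the changes of the log2 ratios were 4.99 for Pax7 to Pax3, 3.80 for Pax5 to Pax2 and 0.62 for Pax8 to Pax2, and for the added pairs 1.46 for Pax7 to Pax5, 3.81 for Pax5 to Pax6 and 5.27 for Pax7 to Pax6. Per kilobase of the longest transcript, Pax6 was at 16.7 and 16.4 CPM. For none of these shifts was the cause tested. Of the 25 called list genes, 10 lost the call in at least 1 alternative. Depth limits Pax1, Pax3, Pax4, Pax8 and Pax9, which had 0 to 11 reads per library.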
